A study of Mus musculus with 11 samples.

Results

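Protein kinase A (PKA), the kinase that cAMP switches on, was followed through the transcripts of its 9 genes in E14.5 mouse hearts: the catalytic subunits *Prkaca* and *Prkacb*, the regulatory subunits *Prkar1a*, *Prkar1b*, *Prkar2a* and *Prkar2b*, and the inhibitor peptides *Pkia*, *Pkib* and *Pkig*. They were chosen by name, as members of the kinase and its inhibitors, among the 55487 gene identifiers counted in each library. Earlier results of these data were known when they were chosen. All 9 passed the minimum of 10 reads over all libraries, as did 24177 genes in all. The libraries were made from 5 Pde2A-/- and 6 Pde2A+/+ embryos, all of the line B6; 129P2-Pde2A<tm1Dgen>, a constitutive allele that is not restricted to the heart, and each library was 1 heart. The embryos were collected from crosses of heterozygous parents. Litter and sex of the single hearts are not given in the sources used here, and p-values therefore measure the spread between these hearts.

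In the resting PKA holoenzyme a dimer of regulatory subunits holds a pair of catalytic subunits inactive, and cAMP bound to the regulatory dimer frees them to phosphorylate their substrates. Regulatory subunits of type I (*Prkar1a*, *Prkar1b*) and type II (*Prkar2a*, *Prkar2b*) differ in how they block the catalytic site and in which A-kinase anchoring proteins (AKAPs) tether them, while the inhibitor peptides bind free catalytic subunits and carry them out of the nucleus. *Pde2a* encodes a phosphodiesterase that degrades both cyclic nucleotides, and binding of cGMP stimulates its hydrolysis of cAMP. In heart muscle PKA acts on contraction, calcium cycling and relaxation, and *Prkar1a* is the regulatory subunit whose loss is lethal to the early embryo.

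The part of each protein that enters the catalytic site is encoded by a short stretch that can be read next to the expression values. In each coding sequence below, from GENCODE M21 transcripts on GRCm38, capitals mark 5 codons: arginine, arginine, any residue, then alanine, glycine or serine, then a hydrophobic residue. The fourth of these codons is where a substrate would offer its serine to the kinase.
Prkar1a: ggccgacggCGCCGAGGTGCTATCagt
Prkar1b: gcgcgtcgcCGGCGGGGCGGTGTGagt
Prkar2a: aaatttactAGACGAGTATCAGTCtgt
Prkar2b: cggttcacaAGGCGTGCCTCGGTCtgt
Pkia: agaacaggtAGAAGAAATGCAATAcat
Pkib: agggcaggcCGCCGCAATGCCTTAccc
Pkig: cggacaggcCGTCGGAATGCAGTCcct
The fourth codon reads alanine in *Prkar1a*, *Pkia*, *Pkib* and *Pkig* and glycine in *Prkar1b*, so these products cannot be phosphorylated there, whereas *Prkar2a* and *Prkar2b* carry a serine. The printed stretch lies in exon 3 of 11 of *Prkar1a* (chr11:109660098-109660124, plus strand) and in exon 3 of 11 of *Prkar1b* (chr5:139108529-139108555, minus strand). In both genes its capitals begin at codon 96 of 381. In both type II genes the printed stretch is split between exons 2 and 3, at chr9:108714287-108716867 on the plus strand for *Prkar2a* and at chr12:31993779-32038643 on the minus strand for *Prkar2b*, intron included. Among the inhibitors it lies in exon 2 of 3 of *Pkia* (chr3:7437410-7437436), exon 4 of 5 of *Pkib* (chr10:57728164-57728190) and exon 3 of 4 of *Pkig* (chr2:163721196-163721222), all on the plus strand. The pattern was found once in each of the 7 coding sequences.

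Sense-strand reads on genes numbered 35865537 to 42835382 per library, and the genotypes did not differ in this depth beyond the spread between hearts (exact permutation test, two-sided, p = 0.87). Targeted *Pde2a* itself had 0 to 2 reads per library, Pde2A+/+ hearts included, too few to check the genotype labels. Whether *Pde2a* is transcribed in Pde2A+/+ hearts was not judged from this count. Among marker genes, 10 of 10 macrophage, 7 of 9 erythroid and 9 of 9 interferon response genes were higher in Pde2A-/- hearts (edgeR adjusted p under 0.05). So were 3 of 6 megakaryocyte, 3 of 10 endothelial and 3 of 11 fibroblast and epicardial genes. In the other direction, 4 of 12 cardiomyocyte, 2 of 8 smooth muscle and 1 of the fibroblast and epicardial genes were lower. Over all genes 14.6% were called, 8.93% as higher and 5.67% as lower, and 22.7% of those that averaged 1 CPM or more. The smooth muscle calls were near that last share. Summed smooth muscle markers (1416 to 1688 CPM in Pde2A-/-, 1538 to 2185 in Pde2A+/+) overlapped between genotypes. So did fibroblast and epicardial markers (7309 to 11765 and 6189 to 11407). Summed macrophage markers spanned 210.9 to 287.3 CPM (counts scaled to a common library size after TMM normalization) in Pde2A-/- hearts against 105.8 to 166.1 in Pde2A+/+, and erythroid markers 617.1 to 1139 against 281.2 to 606.5. Megakaryocyte markers spanned 29.4 to 41.8 against 13.9 to 25.5, endothelial markers 1569 to 1761 against 1283 to 1537, and cardiomyocyte markers 37829 to 43756 against 37421 to 50855. No marker in these lists was at 0 counts, and their part in the results below was not tested. Libraries Pde2A+/+ 7 and 11 held thymus or lung transcripts and Pde2A-/- B and D skeletal muscle transcripts, so results are also given without these 4 libraries. Liver transcripts, 34.3 to 108.2 CPM summed over 6 genes, were in Pde2A+/+ H, E and 11 and Pde2A-/- D, against at most 2.03 in the others, so that leaving out every library with transcripts of another tissue removes 6 and keeps 3 Pde2A-/- and 2 Pde2A+/+ hearts. In whole hearts, fewer cells of a type and less RNA per cell cannot be told apart.

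Of the 9 genes, 3 regulatory subunits rose in Pde2A-/- hearts (*Prkar2b*, *Prkar1b* and *Prkar1a*), 1 inhibitor fell (*Pkia*), and 5 did not pass the test (edgeR's quasi-likelihood test, adjusted p under 0.05 over 24177 genes). These 4 of 9 stand beside 14.6% of all genes tested, and beside 22.7% of the genes that averaged 1 CPM or more. Higher calls made up 8.93% of all genes and lower calls 5.67%. None of the 9 reached a fold change of 2, which 2.59% of all genes did together with the adjusted p. *Prkar2b* was the only one of the 9 whose genotypes did not overlap, against 8.49% of all genes, 5.38% higher and 3.11% lower. DESeq2 called 6 of the 9, adding *Prkaca* and *Prkar2a* as lower, beside 30.2% of the genes to which it gave an adjusted p. At an unadjusted p under 0.05 the test held 7 of the 9, and 7368 of the 24177 genes. The 4 calls became 2 without Pde2A-/- replicate 14 (*Prkar1b*, *Prkar2b*), and 1, *Prkar2b*, without Pde2A-/- replicate D or without the 4 libraries named above. Calls over all genes fell in the same fits to 7.79% without replicate 14, 7.13% without replicate D and 3.98% without the 4 libraries. With all 6 libraries left out edgeR called 0 of the 9 and 1.07% of all genes. At an unadjusted p under 0.05 it then held 3 of the 9, and 3909 of 21304 genes. *Prkar2b* was in that fit at 0.51 on the log2 scale (edgeR adjusted p = 0.0735). The replicates are named by letters or by numbers, which no source calls a batch. Within the 5 hearts named by letters edgeR called 0 of the 9, and within the 6 named by numbers 3, beside 0.466% and 18.6% of all genes. In the hearts named by letters 3 of the 9 were at an unadjusted p under 0.05, as were 2360 of 21466 genes.

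**Figure D1:**
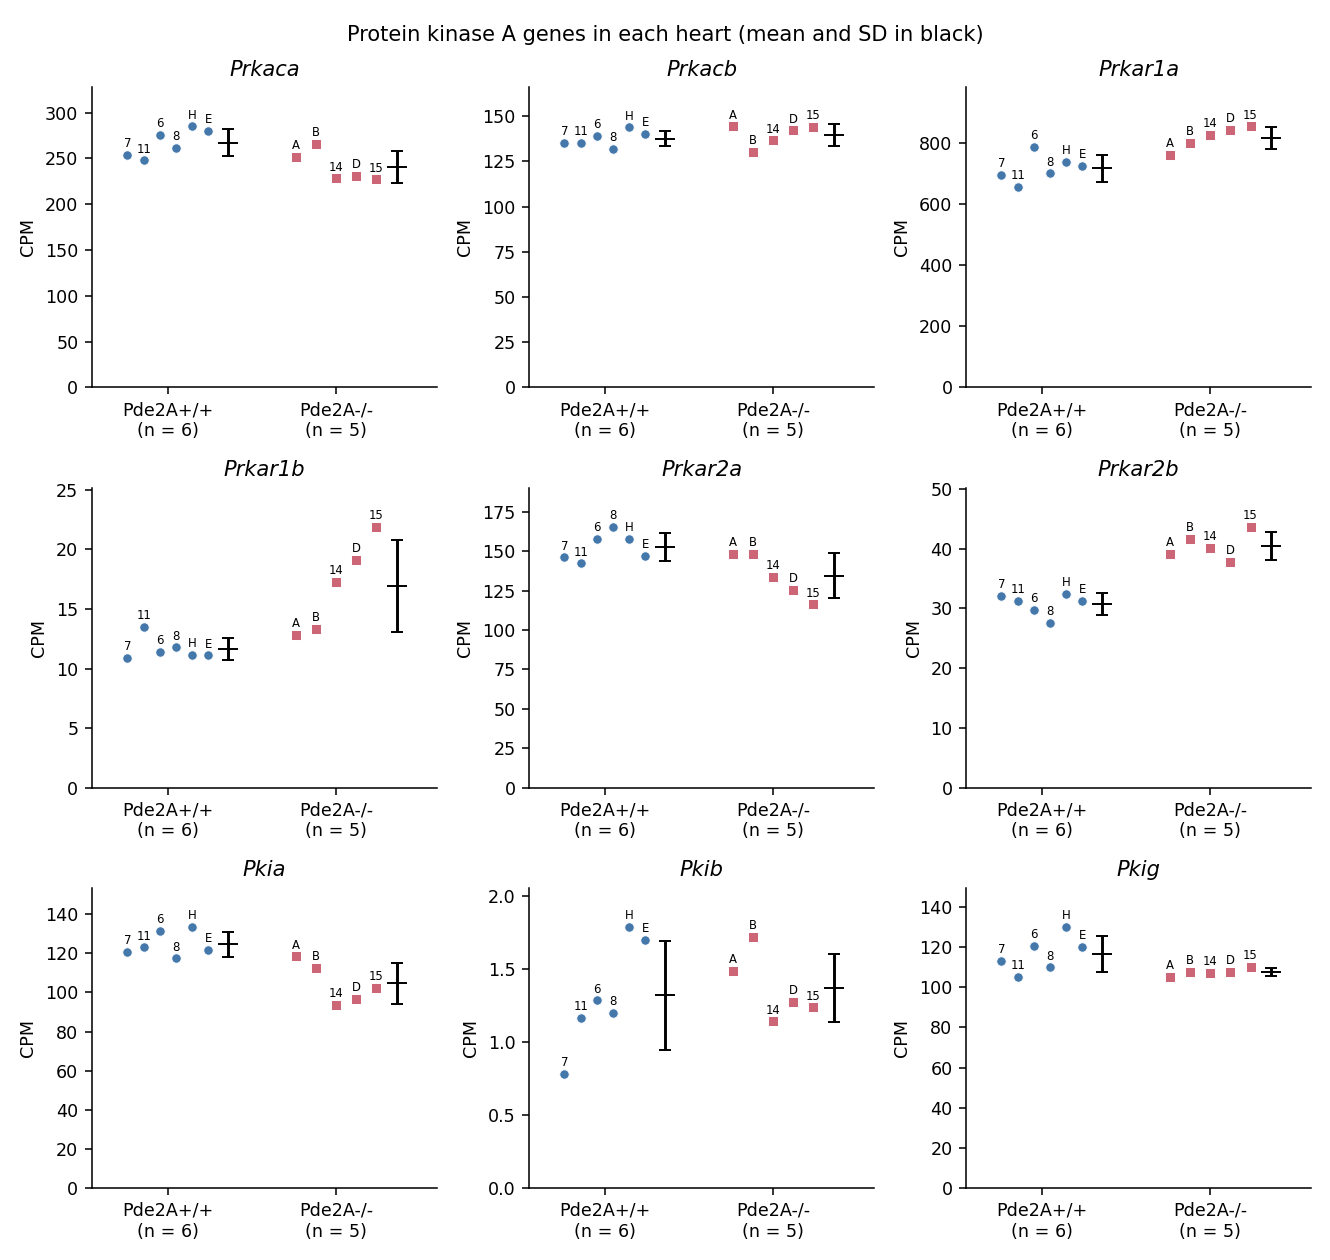
CPM of each PKA gene in each heart, with Pde2A+/+ hearts (n = 6) as blue circles, Pde2A-/- hearts (n = 5) as red squares, replicate names above the points, and mean and SD in black; the vertical axes start at 0 and differ between panels. *Prkar2b* is the panel in which all 5 Pde2A-/- hearts, from 37.7 CPM, sit above all Pde2A+/+ hearts, up to 32.5 CPM.

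*Prkar1a*, which encodes the type I regulatory subunit found in nearly every tissue, had the highest counts of the 9 genes. It read 760.7, 800.3, 825.2, 842.6 and 854.1 CPM in Pde2A-/- replicates A, B, 14, D and 15, and between 657.1 and 788.3 CPM with a median of 713.4 in Pde2A+/+ hearts. Every Pde2A-/- heart but A was above all Pde2A+/+ hearts. The mean was 816.6 ± 37.2 CPM (SD, n = 5) against 717.6 ± 44.4 (SD, n = 6), a 1.14-fold rise (log2 fold change 0.19, SE 0.052, 95% interval 0.08 to 0.30, edgeR adjusted p = 0.0309). This call was the least stable of the 4: it was lost in 6 of the 11 fits that left out 1 heart, with adjusted p up to 0.0752 without Pde2A-/- replicate D and a log2 fold change between 0.16 and 0.22.

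*Prkar1b*, the type I subunit best known from neurons, showed the largest fold change of the 9 genes and the widest spread among knockout hearts. The Pde2A-/- replicates A, B, 14, D and 15 had 12.8, 13.4, 17.3, 19.2 and 21.9 CPM. Pde2A+/+ hearts ranged from 10.9 to 13.5 CPM with a median of 11.3, and Pde2A-/- replicates A and B fell inside this range while 14, D and 15 lay above it. The means, 16.9 ± 3.86 CPM (SD, n = 5) and 11.6 ± 0.947 (SD, n = 6), differed 1.45-fold (log2 fold change 0.54, SE 0.127, 95% interval 0.26 to 0.81, edgeR adjusted p = 0.0162). Its coefficient of variation was 22.8% in Pde2A-/- and 8.14% in Pde2A+/+ hearts; the adjusted p was 0.0517 without Pde2A-/- replicate D and 0.0605 without the 4 libraries named above. Of its exon bases, 8.95% are shared with *Gm15672* on the same strand, and reads there are given to neither gene.

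*Prkar2b*, the type II subunit prominent in fat and brain, was the most consistent rise. It had 39.1, 41.6, 40.1, 37.7 and 43.6 CPM in Pde2A-/- replicates A, B, 14, D and 15, against 27.5 to 32.5 CPM with a median of 31.3 in Pde2A+/+ hearts. All 5 knockout hearts were above all 6 wild-type hearts. The 1.32-fold rise, from 30.7 ± 1.81 CPM (SD, n = 6) to 40.5 ± 2.28 (SD, n = 5), gave a log2 fold change of 0.40 (SE 0.055, 95% interval 0.28 to 0.51) with an edgeR adjusted p of 5.28e-04. It passed the test in all 18 alternatives of tool, filter, strand, covariate or left-out heart and, at 0.44 on the log2 scale (edgeR adjusted p = 0.0185), without the 4 libraries named above, but not without the 6 that include those with liver transcripts. Within hearts named by letters (3 Pde2A-/- and 2 Pde2A+/+) it was at 0.31 (edgeR adjusted p = 0.201), and within those named by numbers at 0.47 (0.00739).

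*Prkar2a*, the broadly expressed type II subunit, had a lower mean in knockout hearts, opposite to its paralogue *Prkar2b*, and did not pass the test. Pde2A-/- replicates A, B, 14, D and 15 had 148.1, 148.4, 133.8, 125.3 and 116.2 CPM, and Pde2A+/+ hearts 142.2 to 165.4 with a median of 152.2. Replicates 14, D and 15 were below all Pde2A+/+ hearts, and A and B were inside their range. Means of 134.4 ± 14.1 CPM (SD, n = 5) and 152.6 ± 8.96 (SD, n = 6) gave a log2 fold change of -0.18 (SE 0.068, 95% interval -0.33 to -0.04, edgeR adjusted p = 0.0866), which DESeq2 called with an adjusted p of 0.0424.

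**Figure D2:**
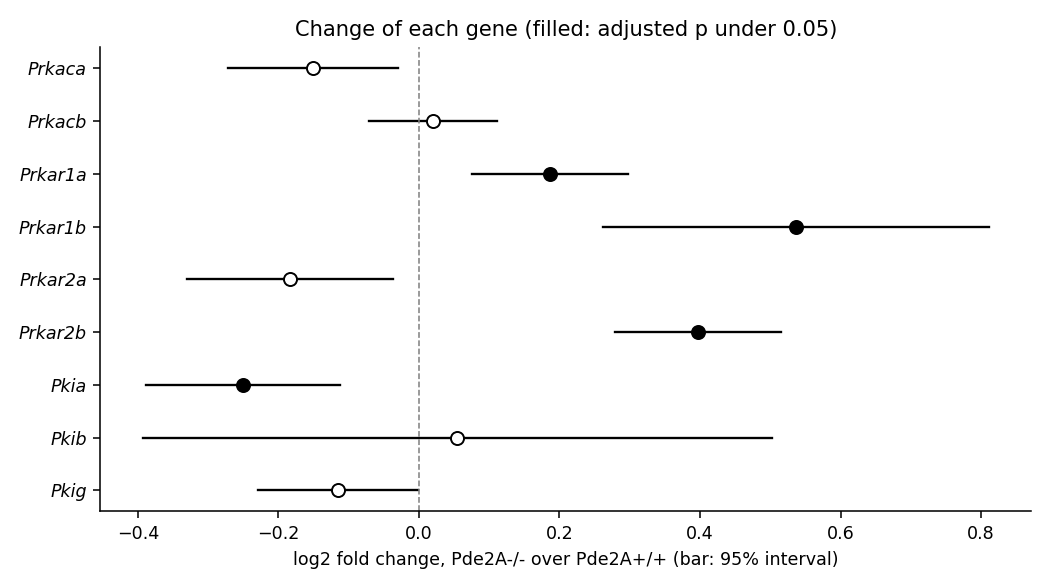
Log2 fold change of each PKA gene, Pde2A-/- over Pde2A+/+, on the horizontal axis, with bars for the 95% interval of the edgeR fit; filled circles passed an adjusted p under 0.05. *Prkar1b* (0.54), *Prkar2b* (0.40) and *Prkar1a* (0.19) are filled to the right of 0 and *Pkia* (-0.25) to the left, and the interval of *Pkib* is the widest.

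The catalytic subunits *Prkaca* (chr8:83972993-83996443, plus strand) and *Prkacb* (chr3:146729574-146812990, minus strand) did not pass the test. *Prkaca*, the main catalytic gene of heart muscle, had 251.7, 265.6, 228.2, 231.1 and 227.0 CPM in Pde2A-/- replicates A, B, 14, D and 15 and 247.7 to 284.8 with a median of 268.5 in Pde2A+/+ hearts. As for *Prkar2a*, replicates 14, D and 15 were below all wild-type hearts and A and B were not. The means were 240.7 ± 17.2 CPM (SD, n = 5) and 267.2 ± 15.1 (SD, n = 6), with a log2 fold change of -0.15 (SE 0.056, 95% interval -0.27 to -0.03, edgeR adjusted p = 0.0872), and DESeq2 called it with an adjusted p of 0.0372. *Prkacb*, its paralogue with many alternative first exons, had 130.0 to 144.3 CPM in Pde2A-/- and 132.0 to 143.8 in Pde2A+/+ hearts. Its log2 fold change of 0.02 had a 95% interval from -0.07 to 0.11 (edgeR adjusted p = 0.809), so changes beyond 1.08-fold in either direction were outside the interval.

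Among the inhibitors, *Pkia*, the form known from heart and skeletal muscle, fell. Pde2A-/- replicates A, B, 14, D and 15 had 118.4, 112.3, 93.7, 96.8 and 102.1 CPM, and Pde2A+/+ hearts 117.3 to 133.3 with a median of 122.3. Every knockout heart but A was below all wild-type hearts. Means of 104.7 ± 10.4 CPM (SD, n = 5) against 124.6 ± 6.36 (SD, n = 6) gave a log2 fold change of -0.25 (SE 0.064, 95% interval -0.39 to -0.11, edgeR adjusted p = 0.0217). The adjusted p rose to 0.0604 without Pde2A-/- replicate 14, to 0.0578 without D and to 0.111 without the 4 libraries named above, with log2 fold changes of -0.21, -0.22 and -0.27.

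*Pkig*, a broadly expressed inhibitor, was nearly constant among knockout hearts, from 105.0 to 110.2 CPM, and ranged from 105.2 to 129.8 in Pde2A+/+ hearts. Its coefficient of variation was 1.72% and 7.58% in these genotypes. The log2 fold change was -0.12 (SE 0.053, 95% interval -0.23 to -0.002, edgeR adjusted p = 0.157). *Pkib* was scarce, with 30 to 73 reads per heart, 1.14 to 1.72 CPM in Pde2A-/- and 0.782 to 1.79 in Pde2A+/+. At this depth its log2 fold change of 0.05 carried a 95% interval from -0.39 to 0.50 (edgeR adjusted p = 0.893).

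**Figure D3:**
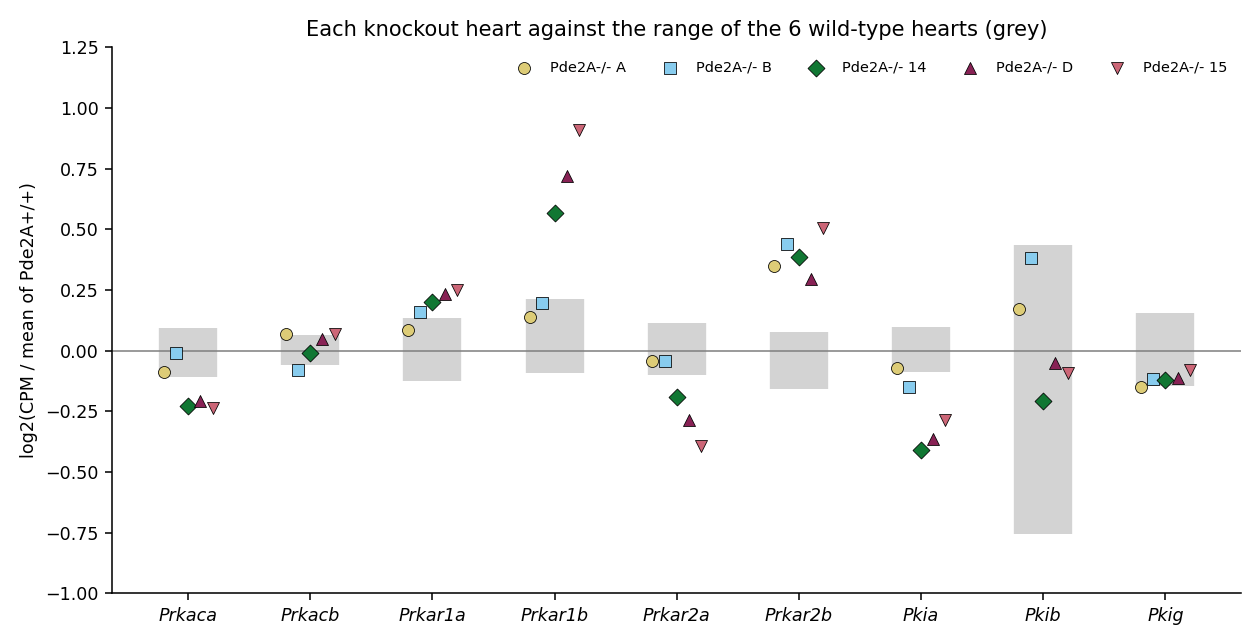
Each Pde2A-/- heart (symbols) as the log2 ratio of its CPM to the Pde2A+/+ mean, for the 9 PKA genes, with grey bars from the lowest to the highest of the 6 Pde2A+/+ hearts. For *Prkaca*, *Prkar1b* and *Prkar2a* replicates A and B lie within the grey bar and 14, D and 15 outside it, whereas all 5 hearts lie above the bar for *Prkar2b*.

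The same 3 knockout hearts, 14, D and 15, thus lay outside the wild-type range for *Prkaca*, *Prkar1b* and *Prkar2a*. Replicates A and B had summed macrophage markers of 210.9 and 239.6 CPM, the lowest of the knockout hearts, and replicates 14, D and 15 had 283.3, 273.1 and 287.3. Summed interferon response genes did not follow the same order, with 68.3 and 179.2 CPM in A and B and 161.8, 127.6 and 198.2 in 14, D and 15, nor did summed erythroid markers, with 617.1 and 1139 in A and B and 936.2, 854.0 and 913.0 in the others. Summed fibroblast and epicardial markers, 7446 and 7309 CPM in A and B against 9359, 11765 and 10142 in 14, D and 15, separated the hearts as macrophage markers did. Summed endothelial markers separated them in the opposite direction, at 1678 and 1761 CPM in A and B against 1569, 1602 and 1585 in 14, D and 15. Summed neuron and glia markers were 15.9, 16.8, 19.2, 20.8 and 23.4 CPM in A, B, 14, D and 15, the order of *Prkar1b*. In Pde2A+/+ hearts replicate 11 was highest in both (35.4 CPM), while replicate 7 was next in the markers (28.8 CPM) and lowest in *Prkar1b*. The part of these cell types in the PKA values was not tested. With each gene centred on its genotype mean, the lowest Pearson correlations over the 11 hearts among the 36 pairs of PKA genes were -0.85 for *Prkar1b* with *Prkar2a* and -0.76 for *Prkaca* with *Prkar1b*. The highest were 0.81 for *Prkaca* with *Pkib*, 0.74 for *Prkaca* with *Pkia* and 0.72 for *Prkar1a* with *Pkig*. These are descriptions: both values of a heart come from the same library and share its depth and cell content, and the values of *Pkib* rest on few reads.

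Levels between genes were compared per length, as TPM, which divides the reads of a gene by its summed exon length and scales the total to the same value in every library. In Pde2A+/+ hearts the order was *Prkar1a* at 566.5 ± 35.9 TPM (SD, n = 6), *Prkaca* at 366.4 ± 22.9, *Pkia* at 114.2 ± 5.34, *Pkig* at 99.6 ± 7.86, *Prkar2a* at 81.6 ± 4.2, *Prkacb* at 53.5 ± 2.04, *Prkar2b* at 28.7 ± 1.91, *Prkar1b* at 10.4 ± 0.780 and *Pkib* at 0.383 ± 0.110. The ranges of *Pkia* and *Pkig* overlapped in both genotypes, with *Pkia* above *Pkig* in 8 of 11 hearts; each of the other neighbours kept its order in all 11 hearts. With the length of the longest transcript in place of all exons, *Pkig* came before *Pkia* and *Prkacb* before *Prkar2a*.

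The E14.5 heart thus expressed mainly *Prkar1a* among regulatory and *Prkaca* among catalytic transcripts. *Prkaca* made up 87.2% ± 0.411 (SD, n = 6) of catalytic TPM in Pde2A+/+ and 85.8% ± 1.2 (SD, n = 5) in Pde2A-/- hearts, and *Prkar1a* 82.4% ± 0.779 and 83.8% ± 1.01 of regulatory TPM; both pairs of ranges overlapped. *Prkar2a* took 11.9% ± 0.628 of regulatory TPM in Pde2A+/+ and 9.37% ± 1.28 in Pde2A-/- hearts, without overlap (11.3 to 13.0% and 7.80 to 10.9%). *Prkar2b* took 4.19% ± 0.354 and 4.91% ± 0.262, with overlap. The ratio of *Prkar2b* to *Prkar2a* was 0.353 ± 0.037 in Pde2A+/+ and 0.531 ± 0.074 in Pde2A-/- hearts, from 0.291 to 0.385 and from 0.462 to 0.656.

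Summed regulatory over summed catalytic TPM was 1.81, 1.84, 2.12, 2.11 and 2.17 in Pde2A-/- replicates A, B, 14, D and 15 and 1.57 to 1.73 in Pde2A+/+ hearts. The groups did not overlap, and their means were 2.01 ± 0.170 (SD, n = 5) and 1.64 ± 0.057 (SD, n = 6). With the longest transcript as length the means were 2.02 and 1.67, and the difference of 0.372 stayed between 0.332 and 0.421 when any 1 heart was left out. Summed inhibitor over summed regulatory TPM was 0.245 ± 0.019 in Pde2A-/- and 0.312 ± 0.012 in Pde2A+/+ hearts, again without overlap. Inhibitor over catalytic TPM, at 0.490 ± 0.015 and 0.510 ± 0.015, overlapped. These sums were formed from the same genes whose changes are given above, are a description with no test, and concern transcripts, not protein or kinase activity.

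**Figure D4:**
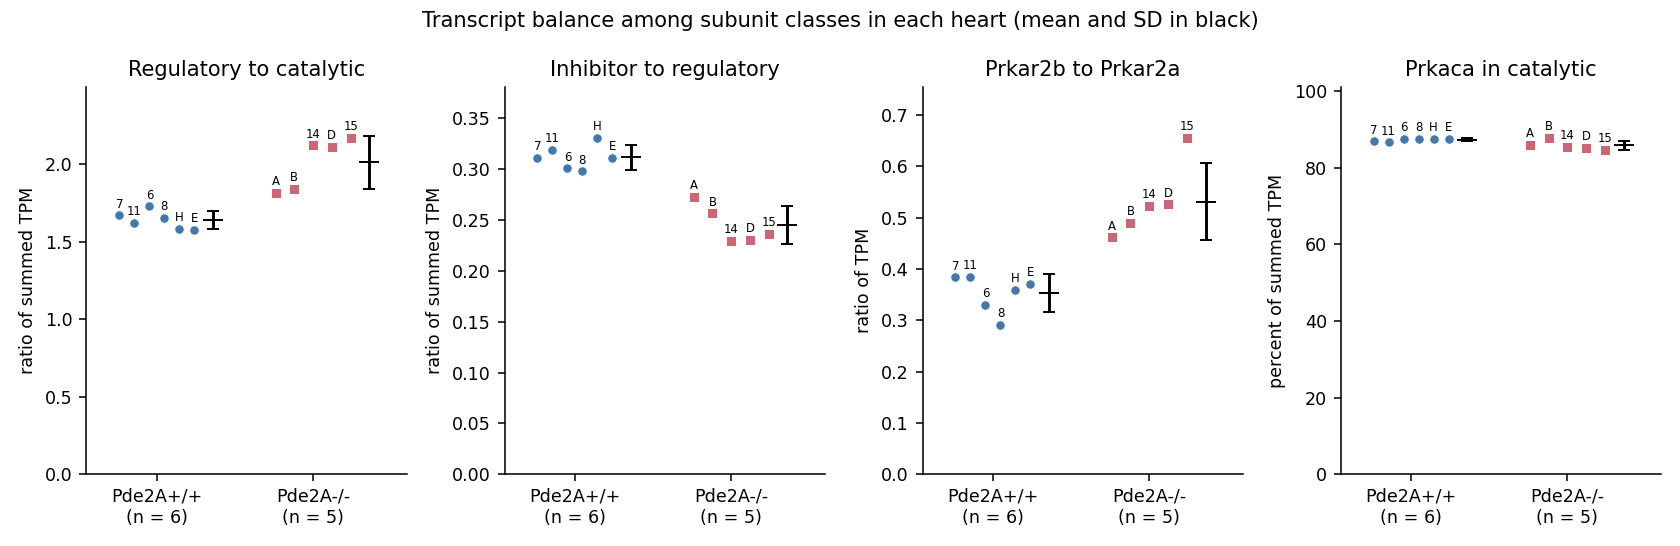
Balance of PKA transcripts in each heart: summed regulatory over summed catalytic TPM, summed inhibitor over summed regulatory TPM, *Prkar2b* over *Prkar2a*, and *Prkaca* as a percent of catalytic TPM, with Pde2A+/+ (n = 6) as blue circles, Pde2A-/- (n = 5) as red squares, and mean and SD in black. The first ratio lies between 1.57 and 1.73 in Pde2A+/+ and between 1.81 and 2.17 in Pde2A-/- hearts, and only the last panel shows overlap.

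The cAMP response element (CRE), TGACGTCA, is the palindrome bound by CREB, a transcription factor that PKA phosphorylates. RefSeq promoter windows on GRCm38.p6, from 250 bases before to 50 bases after a start site, were found for 8 of the 9 genes (24 windows), *Pkia* being without one. The full letters stood in 1.79% of all 32851 windows and, among the PKA genes, in overlapping windows of *Prkar1a* alone, shown here with the element in capitals (chr11:109650889-109650918, plus strand, beginning 49 bases before one start site and within the first transcribed bases of another).
Prkar1a promoter: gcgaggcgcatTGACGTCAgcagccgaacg
The shorter core TGACG, which the full element contains, stood on either strand in 20.8% of all windows and in 8 of these 24, from *Prkaca*, *Prkacb*, *Prkar1a*, *Prkar1b*, *Prkar2a* and *Pkig*. These matches are letters, not sites shown to be bound.

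Around the kinase, 26 of the 28 listed anchoring proteins were tested (all but *Akap4* and *Akap14*), and 1 rose and 2 fell, 11.5% of them and near the 14.6% of all genes, with a median log2 fold change of 0.06 beside -0.02 over all genes. *Akap13*, an anchoring protein of heart muscle, rose from 187.8 ± 8.34 CPM (SD, n = 6) to 210.9 ± 7.47 (SD, n = 5), and all 5 knockout hearts were above the wild-type range (log2 fold change 0.17, edgeR adjusted p = 0.0235). *Wasf1*, an actin regulator that binds type II subunits, fell from 19.4 ± 1.01 to 16.02 ± 0.995 CPM (-0.27, edgeR adjusted p = 0.0107), with all 5 knockout hearts below that range. *Sphkap*, which anchors type I subunits, fell from 55.2 ± 5.12 to 45.9 ± 3.39 CPM (-0.27, edgeR adjusted p = 0.0266). Only *Wasf1* of these 3 passed without Pde2A-/- replicate D, and none of them without the 4 libraries named above. In that last fit edgeR held 1 of 25 tested anchoring proteins at an unadjusted p under 0.05, and 5511 of 22460 genes.

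Of 15 genes listed as PKA substrates of heart muscle, 4 fell and 1 rose, 33.3% beside 14.6% of all genes and 22.7% of those that averaged 1 CPM or more, with a median log2 fold change of -0.11. *Ppp1r1a*, whose product blocks protein phosphatase 1 once PKA has phosphorylated it, fell from 32.9 ± 3.09 CPM (SD, n = 6) to 22.8 ± 2.62 (SD, n = 5), without overlap (log2 fold change -0.53, SE 0.084, edgeR adjusted p = 0.00161). *Tnni1* fell from 1918 ± 170.8 to 1446 ± 209.1 CPM (-0.41, edgeR adjusted p = 0.0127); it encodes the slow skeletal troponin I of the embryonic heart, which lacks the amino-terminal stretch that PKA phosphorylates in the cardiac form, and without it 3 of 14 listed genes fell. *Lipe*, which encodes hormone-sensitive lipase, rose from 9.91 ± 0.612 to 15.5 ± 3.905 CPM (0.64, edgeR adjusted p = 0.00833), with all 5 knockout hearts above the wild-type range. *Mybpc3* (-0.34) and *Fxyd1* (-0.22) also fell, and are named after their values were seen. Without the 4 libraries named above 3 of the 15 were called, beside 3.98% of all genes. *Ppp1r1a* (edgeR adjusted p = 0.0178) and *Tnni1* (0.0334) were among them, and *Lipe* was not (0.0718). With all 6 libraries left out edgeR called 0 of the 15 and 1.07% of all genes. Summed cardiomyocyte markers overlapped between genotypes, as given above, while 4 of 12 were lower and the median log2 fold change of the 12 was -0.26. Their part in the substrate values was not tested.

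Of 16 genes of the CREB family and its responsive genes, 6 rose and 1 fell, with a median log2 fold change of 0.11. These calls were 43.8% of the list, beside 14.6% of all genes and 22.7% of those that averaged 1 CPM or more. The list was written with earlier results of these data known. The largest rises were those of *Nr4a3* (1.74, edgeR adjusted p = 0.0151), *Fos* (1.54, 0.00622) and *Nr4a1* (1.14, 0.0273), immediate early genes that answer many signals besides cAMP. *Fos* had 4.59, 6.09, 7.79, 17.3 and 16.2 CPM in Pde2A-/- replicates A, B, 14, D and 15, against 3.05 to 4.30 in Pde2A+/+ hearts, so that D and 15 were highest. The genotypes overlapped for the other genes. *Nr4a1* in A and B (15.2 and 17.2 CPM) was inside the Pde2A+/+ range of 12.8 to 18.3, and *Nr4a3* in A (1.28 CPM) inside 0.870 to 1.51. The call of *Nr4a1* was lost in 4 of the 11 fits that left out 1 heart, with edgeR adjusted p up to 0.0845. *Creb1* itself had a log2 fold change of 0.06 (edgeR adjusted p = 0.42) and *Crtc1*, a CREB coactivator, fell by 0.23 on the log2 scale (edgeR adjusted p = 0.0485). *Nr4a2*, also in the list, had a negative log2 fold change of -0.31 and did not pass (edgeR adjusted p = 0.162). *Creb1*, *Crtc1* and *Nr4a2* are named after their values were seen. Without the 4 libraries named above edgeR called 0 of the 16, and 6 were at an unadjusted p under 0.05, as were 5511 of 22460 genes.

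Among 10 genes for other cAMP-binding proteins and the PKA-like kinase *Prkx*, 2 fell and 8 did not pass, a share of 20.0% between the 14.6% of all genes and the 22.7% of those that averaged 1 CPM or more, with a median log2 fold change of -0.09. *Bves* and *Popdc3* encode Popeye domain proteins, cAMP-binding membrane proteins of muscle. *Bves* fell from 287.1 ± 34.6 CPM (SD, n = 6) to 218.4 ± 24.3 (SD, n = 5), with all 5 knockout hearts below the wild-type range (log2 fold change -0.39, edgeR adjusted p = 0.0133). *Popdc3* fell from 34.3 ± 4.69 to 26.8 ± 2.61 CPM (-0.36, edgeR adjusted p = 0.0259), with its highest knockout value, 28.5254, close to its lowest wild-type value, 28.5345. Of 7 regulators of PKA subunits, 28.6% were called, beside the same 14.6% and 22.7%, with a median log2 fold change of -0.08. *Pdpk1*, which phosphorylates the activation loop of the catalytic subunit, rose (0.15, edgeR adjusted p = 0.0492). *Gpr161*, a receptor that anchors type I subunits, fell (-0.39, edgeR adjusted p = 0.0423). Each call was lost in 8 of the 11 fits that left out 1 heart, with adjusted p up to 0.107. Without the 4 libraries named above edgeR called 0 in either list. At an unadjusted p under 0.05 it then held 4 of 10 and 2 of 7, beside 5511 of 22460 genes.

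**Figure D5:**
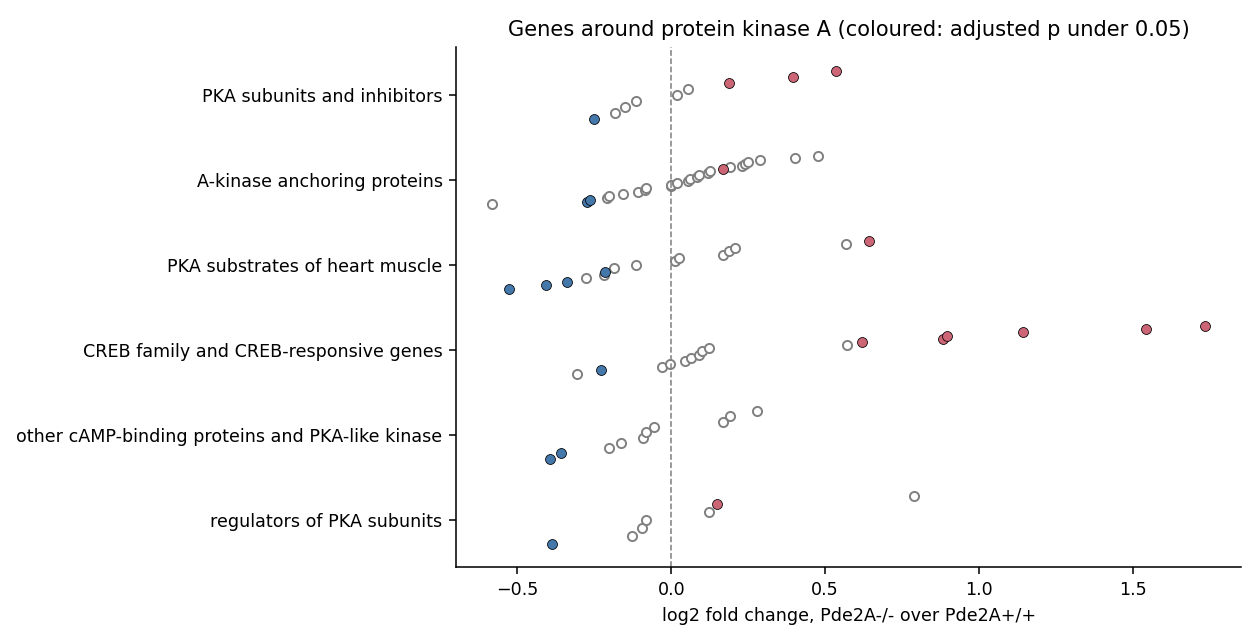
Log2 fold change, Pde2A-/- over Pde2A+/+, of every tested gene in 6 lists around PKA; red and blue points passed an adjusted p under 0.05 as higher and lower, open points did not, and the vertical spread within a list only separates the points. The PKA genes lie between -0.25 and 0.54, and the largest values, up to 1.74 for *Nr4a3*, belong to the CREB list.

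For each PKA gene, the genes most like it over the 11 hearts were those with the highest Pearson correlation of log2 CPM, centred on the genotype mean, among the 11098 protein-coding genes that averaged 5 CPM or more. They were *Atp5h* and *Cdh5* for *Prkaca*, *Klf11* and *Cc2d2a* for *Prkacb*, *Atxn2* and *Lmod2* for *Prkar1a*, *Gabarap* and *Mettl21a* for *Prkar1b*, *Tmem199* and *Papola* for *Prkar2a*, *Gpatch2l* and *Herc6* for *Prkar2b*, *Scaf8* and *Ccdc90b* for *Pkia*, *Srgap1* and *Mylk3* for *Pkib*, and *Osbpl1a* and *Acot13* for *Pkig*. The highest of these correlations was 0.99, for *Prkar2a* with *Tmem199*, and the lowest was 0.88, for *Pkib* with *Mylk3*. The values of each pair come from the same 11 libraries and were picked from many genes, so they are a description. Reads on the strand opposite to the 9 genes were at most 1.83% of their sense and opposite reads together in any heart, apart from *Pkib*, which had 4 such reads in all; none of the 8 genes with a fitted value passed the edgeR test on the opposite strand, with adjusted p from 0.193 to 0.999.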

How the data were processed

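RNA was sequenced from 5 Pde2A-/- and 6 Pde2A+/+ E14.5 hearts, 1 stranded single-end library per heart. The authors mapped the reads to GRCm38 (mm10) with STAR, whose version is not given in the sources used here, and deposited raw read counts per gene, both strands together, sense and antisense, without normalization. A read on more than 1 gene or place is in no gene's count. In all, 19.6 to 22.4% of reads per library were in no gene's count. They were unmapped, mapped to several places, on no gene's sense strand, or on more than 1 gene.

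Sense counts were tested with edgeR 4.0.16 in R 4.3.3 (TMM, genes with at least 10 counts over 11 libraries, quasi-likelihood test, Benjamini-Hochberg adjustment over 24177 genes); DESeq2 1.42.0 was an alternative. Log2 CPM used a prior count of 2. Annotation came from GENCODE M21 (55227 of 55487 identifiers matched) and promoters from RefSeq. On simulated data edgeR recovered 94 of 100 genes shifted by a log2 value of 1 and 69 of 100 shifted by 0.5, with 10 wrong calls among 23680 genes. DESeq2 recovered 97 and 82 of the same genes, with 47 wrong calls. Genes called by DESeq2 alone, such as *Prkaca* and *Prkar2a*, are to be read with this in mind. The members and gene lists were chosen with earlier results of these data known. Named genes are the 9 members, *Pde2a*, up to 3 called genes with the largest change per list at a mean of at least 1 CPM, and the 2 most alike per member. Alternatives were other tools, filters, strands and lengths, globin genes left out, naming style, and each heart left out; fits within a naming style and without 4 or 6 libraries were added after seeing the data.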

Additional observations from a re-analysis of the deposited data

Results flagged for a closer look

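3 values stood apart from their group by Dixon's test at the 95% level, out of 74 groups of 5 or 6 hearts examined; chance alone flags about 1 in 20 groups. *Prkar1b* in Pde2A+/+ replicate 11 was 13.5 CPM, against 10.9 to 11.8 in the other 5 Pde2A+/+ hearts. In the same heart *Prkar1b* made up 1.90% of regulatory TPM, against 1.37 to 1.56% in the others. This library also held lung transcripts, 43.5 CPM summed over 5 lung genes. Pde2A+/+ replicate 7 held 40.4 CPM of them and had the lowest *Prkar1b*, 10.9 CPM. Replicate 11 also had the highest summed neuron and glia markers, 35.4 CPM against 13.6 to 28.8 in the other Pde2A+/+ hearts. The part of these transcripts in the *Prkar1b* value was not tested. Without replicate 11 the log2 fold change of *Prkar1b* was 0.58 (edgeR adjusted p = 0.0172). *Prkar2a* made up 13.0% of regulatory TPM in Pde2A+/+ replicate 8, against 11.3 to 12.0% in the other 5 Pde2A+/+ hearts; without it the difference in this share between the genotypes was -2.28 percentage points, in place of -2.51.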

How the results depend on the processing

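Over 18 alternatives of tool, filter, strand, covariate or left-out heart, *Prkar2b* was called in 18, *Prkar1b* in 17, *Pkia* in 16 and *Prkar1a* in 12, each with its direction kept. *Prkaca* and *Prkar2a* were called in 3 each, *Prkacb*, *Pkib* and *Pkig* in 0 by edgeR and by DESeq2. Direction turned for *Pkib* with naming style as a term (log2 fold change -0.056), without Pde2A-/- replicate B (-0.040), without Pde2A+/+ replicate 7 (-0.058), within letter-named hearts (-0.22) and without 4 libraries (-0.22), with leave-one-out values from -0.058 to 0.16, and for *Prkacb* within letter-named hearts (-0.036). DESeq2 called 6 of the 9 members and 30.2% of 17013 genes. With 1 heart left out, the calls ranged from 1 to 6 among the members, 1702 to 5052 among all genes (3532 with all hearts), 1 to 8 among anchoring proteins (8 without Pde2A-/- replicate A, 1 without D), 3 to 7 among substrates, 3 to 8 among CREB genes, 1 to 2 among other cAMP-binding proteins and 0 to 3 among regulators.

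The replicates are named by letters or numbers, which no source calls a batch. Within letter-named hearts (3 Pde2A-/-, 2 Pde2A+/+) edgeR called 0 members, 100 genes in all and 0 of each list. At an unadjusted p under 0.05 it held 3 of 9 members and 2360 of 21466 genes. At that level were 3 of 25 anchoring proteins, 8 of 15 substrates and 2 of 16 CREB genes. So were 4 of 10 other cAMP-binding proteins and 0 of 7 regulators. *Prkar2b* was at 0.31 (edgeR adjusted p = 0.201), *Prkar1b* at 0.44, *Prkar1a* at 0.13 and *Pkia* at -0.23. Within number-named hearts (2 and 4) edgeR called 3 of 9 members and 4124 of 22191 genes, 18.6%. It also called 7 of 25 anchoring proteins, 6 of 15 substrates, 8 of 16 CREB genes, 1 of 10 other cAMP-binding proteins and 2 of 7 regulators. In these hearts *Prkar2b* was at 0.47, *Prkar1b* at 0.72, *Prkar1a* at 0.24 and *Pkia* at -0.33. With naming style as a term 8 of 15 substrates and 1 of 7 regulators were called, beside 3952 genes in all. Without a filter 1 of 7 regulators was called, beside 3178 genes in all. Without the 4 libraries with transcripts of other tissues 1 member, 894 genes, 3 substrates and 0 genes of each other list were called. Without those with liver transcripts too, 6 libraries, edgeR called 0 members, 228 genes and 0 of each list. At an unadjusted p under 0.05 it then held 3909 of 21304 genes, 2 of 25 anchoring proteins and 7 of 15 substrates. It also held 6 of 16 CREB genes, 3 of 10 other cAMP-binding proteins and 0 of 7 regulators. Fewer hearts entered these fits. No paired analysis was possible because the genotypes share no replicate name. Depth limits *Pkib*, at 30 to 73 reads per heart, the most.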
